A study of Mus musculus with 46 samples.

Results

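White matter (WM) repopulating cells were compared with their own baseline 24 hr after lipopolysaccharide (LPS), across all genes measured in sorted cells. The members are the 4 libraries titled for repopulation at 24 hr and the 4 libraries titled for repopulation at 0 hr, which is 8 of the 24 libraries of the sorted-cell experiment and of the 46 libraries of the series. All 8 came from male C57BL/6 mice that were 2 months old when chow with PLX3397 at 600 ppm was started. The mice ate this chow for 14 days and then recovered on control chow for 28 days. PLX3397 inhibits CSF1R, the receptor on which microglia depend for survival, so that microglia are lost and, after withdrawal, myeloid cells return to the brain. The 24 hr mice received LPS of Escherichia coli 0111:B4 by intraperitoneal injection at 0.33 mg/kg, and the 0 hr mice received no LPS. Cells were taken from whole brain hemispheres and sorted as CD11b+CD45int, so the libraries are not restricted to white matter. The other groups of the experiment were WM repopulating cells at 6 hr (4 libraries) and control microglia of mice that had no PLX3397, with 3 libraries at 0 hr, 5 at 6 hr and 4 at 24 hr.

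LPS is the outer membrane glycolipid of Gram-negative bacteria and is sensed through TLR4 with the help of CD14 and MD-2. The signal runs through MYD88 to NF-kB, which turns on cytokines and chemokines, and through TRIF to interferon beta, which turns on interferon-stimulated genes. Microglia that respond to LPS are known to lower the genes that mark them at rest, such as those of the purinergic receptor P2RY12 and the surface protein TMEM119. An injection into the peritoneum reaches the brain mostly through signals from the blood and the borders of the brain.

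Levels are given as FPKM, a read count scaled by gene length and library size, in each library or as mean ± SD over the 4 libraries of a group. A difference is given as a log2 fold change (log2FC) on the log2(FPKM + 1) scale ± SE, on which changes of low FPKM come out too small, and as a p adjusted over the 12684 genes tested with limma. Genes with an adjusted p under 0.05 are called DEGs. The libraries held 6.32 to 7.79 M reads at 0 hr and 6.42 to 10.4 M reads at 24 hr, as recovered from the steps of the FPKM values. A single read of a gene of 2 kb was worth 0.0482 to 0.0792 FPKM in these libraries. Correlations across genes, which are not independent replicates, were 0.959 to 0.984 between libraries of the same group (12 pairs) and 0.929 to 0.949 between libraries of different groups (16 pairs).

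The microglial identity given by the sort was checked with lists of marker genes. The 10 microglial markers were all detected in every library and their summed level was 20830 to 24480 FPKM at 0 hr and 10150 to 14750 FPKM at 24 hr, with all 10 lower at 24 hr. Neutrophil markers were also abundant. Their sum was 2941 to 11160 FPKM at 0 hr and 3204 to 7258 FPKM at 24 hr, so the groups overlapped, and of the 12 markers Cxcr2 was higher and Ly6g lower at 24 hr. The monocyte markers summed to 174 to 483 FPKM at 0 hr and 170 to 792 FPKM at 24 hr, with Plac8 and Ly6a of 10 higher. Markers of neurons summed to 2.97 to 4.44 FPKM at 0 hr and 3.54 to 5.83 FPKM at 24 hr. The defining marker Cldn5 of endothelial cells and Mog of oligodendrocytes were not listed in the table. In sorted bulk samples, fewer cells of a type and less RNA per cell cannot be told apart.

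**Figure D1:**
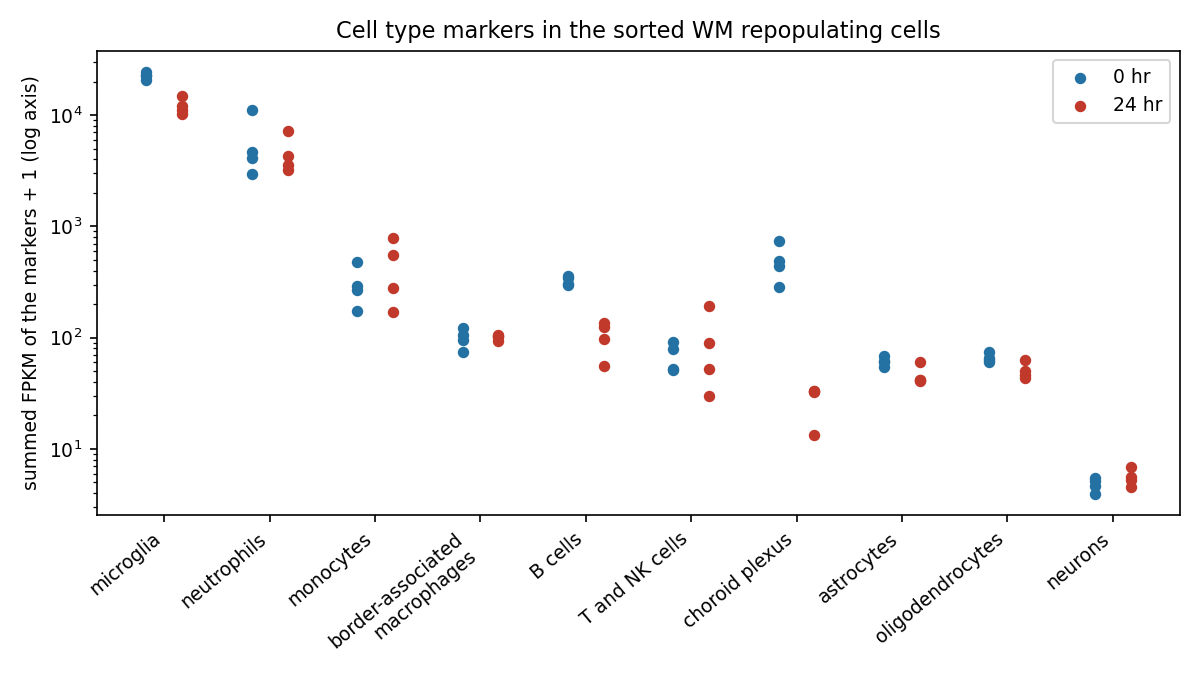
Summed FPKM + 1 of the markers of 10 cell types (vertical log axis) in each of the 4 libraries at 0 hr (blue) and the 4 libraries at 24 hr (red) of WM repopulating cells. The microglial sum is lower in every 24 hr library, the choroid plexus sum falls from 282 to 739 FPKM to 12.2 to 32.5 FPKM, and the neutrophil sums of the groups overlap.

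Among the 24 hr libraries, replicate 2 had the highest correlation with the 6 hr mean and the lowest with the 0 hr mean. Its correlation across genes was 0.960 with the 6 hr mean and 0.941 with the 0 hr mean, where replicate 1 had 0.955 and 0.958. Its neutrophil sum of 7258 FPKM and its monocyte sum of 792 FPKM were the highest of the 24 hr libraries, and their part in the genes for which it stands out was not tested. It was far above the other 24 hr libraries (by Dixon's criterion for a single value) for 22 of the 789 DEGs with a log2 fold change past 1, compared with 5 to 12 genes for each of the other 3 libraries. Without replicate 2 of 24 hr, 1152 DEGs were higher and 894 lower. The counts were no larger without replicates 1, 3 or 4 of 24 hr, each left out alone, with 1082 to 1148 higher and 800 to 875 lower.

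Of the genes tested, 2389 were DEGs at 24 hr against 0 hr, which is 18.8% of them. The 1338 DEGs that were higher at 24 hr make up 10.5% of the genes tested and the 1051 that were lower 8.29%. A log2 fold change past 1 was reached by 789 DEGs (6.22% of the genes tested), of which 448 were higher and 341 lower. The groups did not overlap for 25.1% of the genes tested, with all 24 hr libraries above all 0 hr libraries for 1672 genes and below them for 1517, and 2073 of the 2389 DEGs had groups that did not overlap. The median log2 fold change of all genes tested was 0.02. Genes whose level at 24 hr differed from 6 hr made up 15.7% of the genes tested, which is the background for the values set beside 6 hr here.

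**Figure D2:**
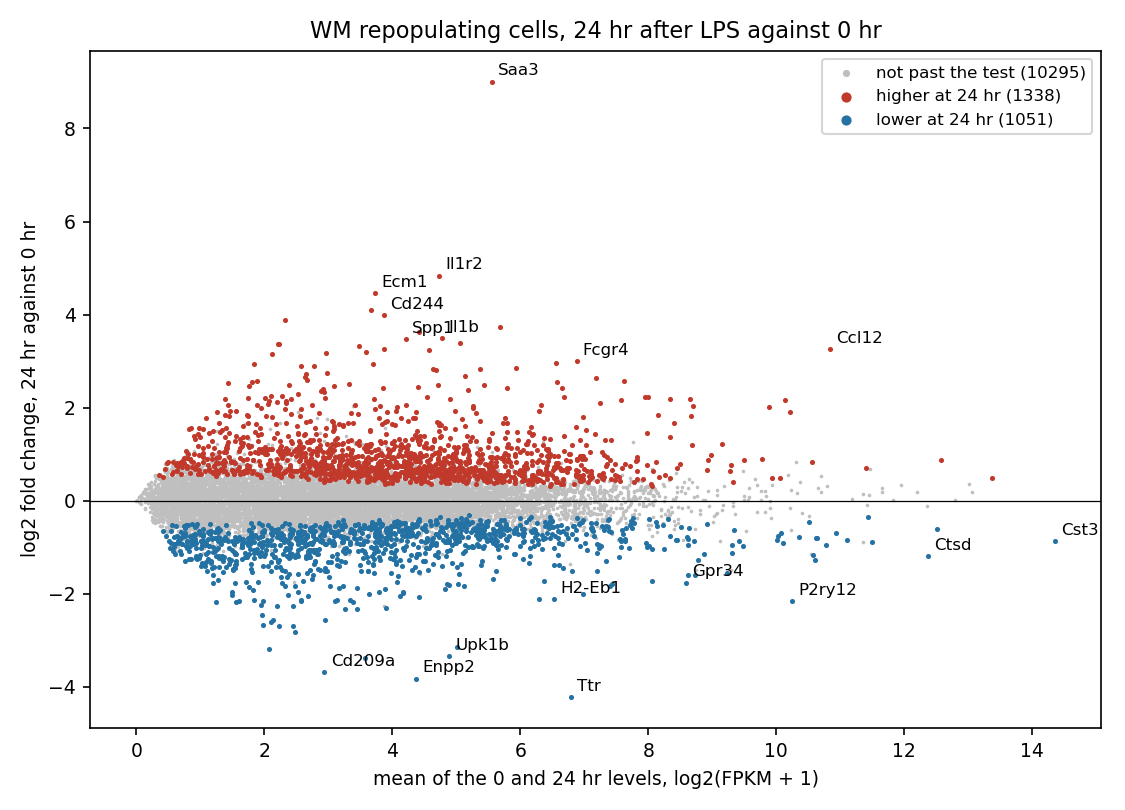
Log2 fold change at 24 hr against 0 hr (vertical axis) by mean level on the log2(FPKM + 1) scale (horizontal axis) for the 12684 genes tested in WM repopulating cells. The 1338 DEGs higher at 24 hr are red, the 1051 lower DEGs are blue, and the most changed genes are Saa3 upwards and Ttr downwards.

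The largest rise was that of Saa3 (Entrez ID 20210, chr7:46711998-46719615 of GRCm38.p6), which encodes an acute phase protein of the serum amyloid A family. Saa3 had 1.02, 2.98, 0.484 and 0 FPKM at 0 hr and 741, 1694, 1189 and 560.1 FPKM at 24 hr. The groups did not overlap (log2FC 9.01 ± 0.46, adjusted p = 1.54e-12), and at 6 hr Saa3 stood at 3548 to 10770 FPKM, so the level at 24 hr was below that of 6 hr (log2FC against 6 hr -2.76 ± 0.46, adjusted p = 0.000201). Il1r2, the decoy receptor of interleukin 1, had 0.909, 2.36, 3.44 and 4.01 FPKM at 0 hr and 54.7, 586, 78.8 and 35.5 FPKM at 24 hr. Its 24 hr libraries all lay above those at 0 hr (log2FC 4.84 ± 0.69, adjusted p = 2.53e-05), with replicate 2 far above the others. The secreted matrix glycoprotein gene Ecm1 rose from 1.83 ± 1.01 to 60.95 ± 18.4 FPKM (log2FC 4.47 ± 0.45, adjusted p = 2.35e-07) and the scavenger receptor Msr1 from 2.02 ± 1.08 to 52.3 ± 25.8 FPKM (log2FC 4.09 ± 0.31, adjusted p = 3.66e-09).

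The receptor gene Cd244 of the SLAM family was even within each group. It had 2.74, 2.99, 2.22 and 2.63 FPKM at 0 hr and 70.99, 55.8, 54.04 and 48.9 FPKM at 24 hr (log2FC 3.99 ± 0.15, adjusted p = 3.72e-15), and at 6 hr it was at 55.3 to 70.6 FPKM, a difference that did not pass the test (log2FC against 6 hr -0.06 ± 0.15, adjusted p = 0.824). Adamtsl4, which encodes a secreted ADAMTS-like protein, rose from 0.287 ± 0.178 to 18.3 ± 5.16 FPKM (log2FC 3.88 ± 0.27, adjusted p = 1.19e-09). Cd300lf, an inhibitory receptor of the CD300 family, had 103, 524, 146 and 80.3 FPKM at 24 hr against 12.6, 14.6, 7.36 and 10.8 FPKM at 0 hr (log2FC 3.73 ± 0.46, adjusted p = 3.96e-06), and Ms4a4a, a membrane protein gene of the MS4A family, had 55.4, 283, 137 and 28.3 FPKM against 6.97, 7.76, 10.6 and 5.53 FPKM (log2FC 3.396 ± 0.58, adjusted p = 0.000181). In both genes replicate 2 was the highest of the 24 hr libraries. AI607873 rose from 5.14 ± 1.19 to 73.8 ± 10.9 FPKM (log2FC 3.62 ± 0.23, adjusted p = 2.14e-10) and Igfbp6, a binding protein of insulin-like growth factors, from 0.442 ± 0.404 to 13.9 ± 4.17 FPKM (log2FC 3.37 ± 0.26, adjusted p = 4.57e-09).

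The inflammatory cytokine list held 14 tested genes. Of these, Tnf, Il1a, Il1b, Il1rn, Csf1 and Osm rose and Il6 fell, and the median log2 fold change was 1.23, compared with 0.02 over all genes tested. Il1b, which encodes interleukin 1 beta, had 11.6, 5.01, 10.9 and 2.51 FPKM at 0 hr and 85.3, 70.8, 124 and 66.02 FPKM at 24 hr. Its groups did not overlap (log2FC 3.499 ± 0.60, adjusted p = 0.000194). Tnf, the gene of tumor necrosis factor, had 112, 117, 74.99 and 56.1 FPKM at 0 hr and 437, 450, 398 and 300.4 FPKM at 24 hr (log2FC 2.17 ± 0.31, adjusted p = 2.1e-05). The Tnf libraries at 24 hr also lay above those at 6 hr, which held 160.1 to 218 FPKM (log2FC against 6 hr 1.05 ± 0.31, adjusted p = 0.0202). Il1a, the gene of interleukin 1 alpha, was also higher at 24 hr than at both earlier times. It had 203 ± 16.2 FPKM at 0 hr and 848 ± 138 FPKM at 24 hr (log2FC 2.04 ± 0.47, adjusted p = 0.00344). At 6 hr Il1a had 152 to 247 FPKM, around its level at 0 hr (log2FC of 24 hr against 6 hr 2.08 ± 0.47, adjusted p = 0.00381). Il1rn, which encodes the antagonist of the interleukin 1 receptor, went the other way between the later times. It was at 250.2 to 649 FPKM at 6 hr and at 7.98, 13.01, 11.6 and 3.31 FPKM at 24 hr, from 0.806, 1.18, 1.19 and 1.19 FPKM at 0 hr (log2FC 2.13 ± 0.51, adjusted p = 0.0046), a call that ended under voom (adjusted p = 0.0806). Il6 fell from 8.11 ± 0.885 to 3.32 ± 2.26 FPKM (log2FC -1.23 ± 0.36, adjusted p = 0.0192), a call that was lost without replicate 3 (adjusted p = 0.0547) or replicate 4 (adjusted p = 0.0910) of 24 hr.

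Chemokines of the CC family, which attract monocytes and T cells, rose in 6 of 11 tested genes (Ccl2, Ccl3, Ccl4, Ccl5, Ccl7 and Ccl12) and fell in Ccl24, with a median log2 fold change of 1.91. Ccl12 (chr11:82101845-82103399) was the most abundant of them and had 780.1, 594, 461 and 538 FPKM at 0 hr and 6568, 5229, 5205 and 5357 FPKM at 24 hr. The 24 hr libraries were all above the 0 hr libraries (log2FC 3.25 ± 0.29, adjusted p = 3.65e-08), and the level did not differ from that at 6 hr by the test (log2FC against 6 hr 0.17 ± 0.29, adjusted p = 0.739). Ccl3 rose from 605 ± 72.7 to 2327 ± 713 FPKM (log2FC 1.91 ± 0.46, adjusted p = 0.0048), Ccl7 from 37.99 ± 10.2 to 232 ± 72.97 FPKM (log2FC 2.56 ± 0.32, adjusted p = 3.81e-06) and Ccl5 from 111 ± 30.3 to 538 ± 191 FPKM (log2FC 2.23 ± 0.45, adjusted p = 0.00096). Ccl5 had stood at 1264 to 2039 FPKM at 6 hr. Ccl24, a ligand of CCR3, fell from 5.7 ± 1.54 to 1.57 ± 0.798 FPKM (log2FC -1.41 ± 0.32, adjusted p = 0.00282).

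Of the 8 CXC chemokines tested, Cxcl2, Cxcl10 and Cxcl13 rose, 5 rose when only the groups compared were fitted and 2 under 9 of 17 alternatives. Cxcl13, which attracts B cells through CXCR5, had 10.6, 2.45, 0.774 and 3.09 FPKM at 0 hr and 44.4, 32.2, 50.8 and 30.8 FPKM at 24 hr (log2FC 3.27 ± 0.61, adjusted p = 0.000461). The neutrophil attractant Cxcl2 rose from 8.75 ± 2.92 to 67.2 ± 14.4 FPKM (log2FC 2.82 ± 0.37, adjusted p = 8.14e-06) and the interferon-induced Cxcl10 from 17.4 ± 3.29 to 61.5 ± 13.5 FPKM (log2FC 1.76 ± 0.61, adjusted p = 0.0442), although the call of Cxcl10 was lost under 11 of the alternatives tried. Among 11 chemokine and chemoattractant receptors, Ccr1, C5ar1, Fpr1 and Fpr2 rose and Cx3cr1 and Ccr6 fell. C5ar1, the receptor of the complement fragment C5a, rose from 115 ± 11.8 to 554 ± 157 FPKM (log2FC 2.22 ± 0.17, adjusted p = 5.19e-09), and the formyl peptide receptor Fpr1 from 3.02 ± 1.79 to 35.2 ± 15.9 FPKM (log2FC 3.198 ± 0.43, adjusted p = 1.24e-05). Cx3cr1, the fractalkine receptor of microglia, fell from 2408 ± 172 to 1263 ± 251 FPKM (log2FC -0.95 ± 0.24, adjusted p = 0.00604).

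**Figure D3:**
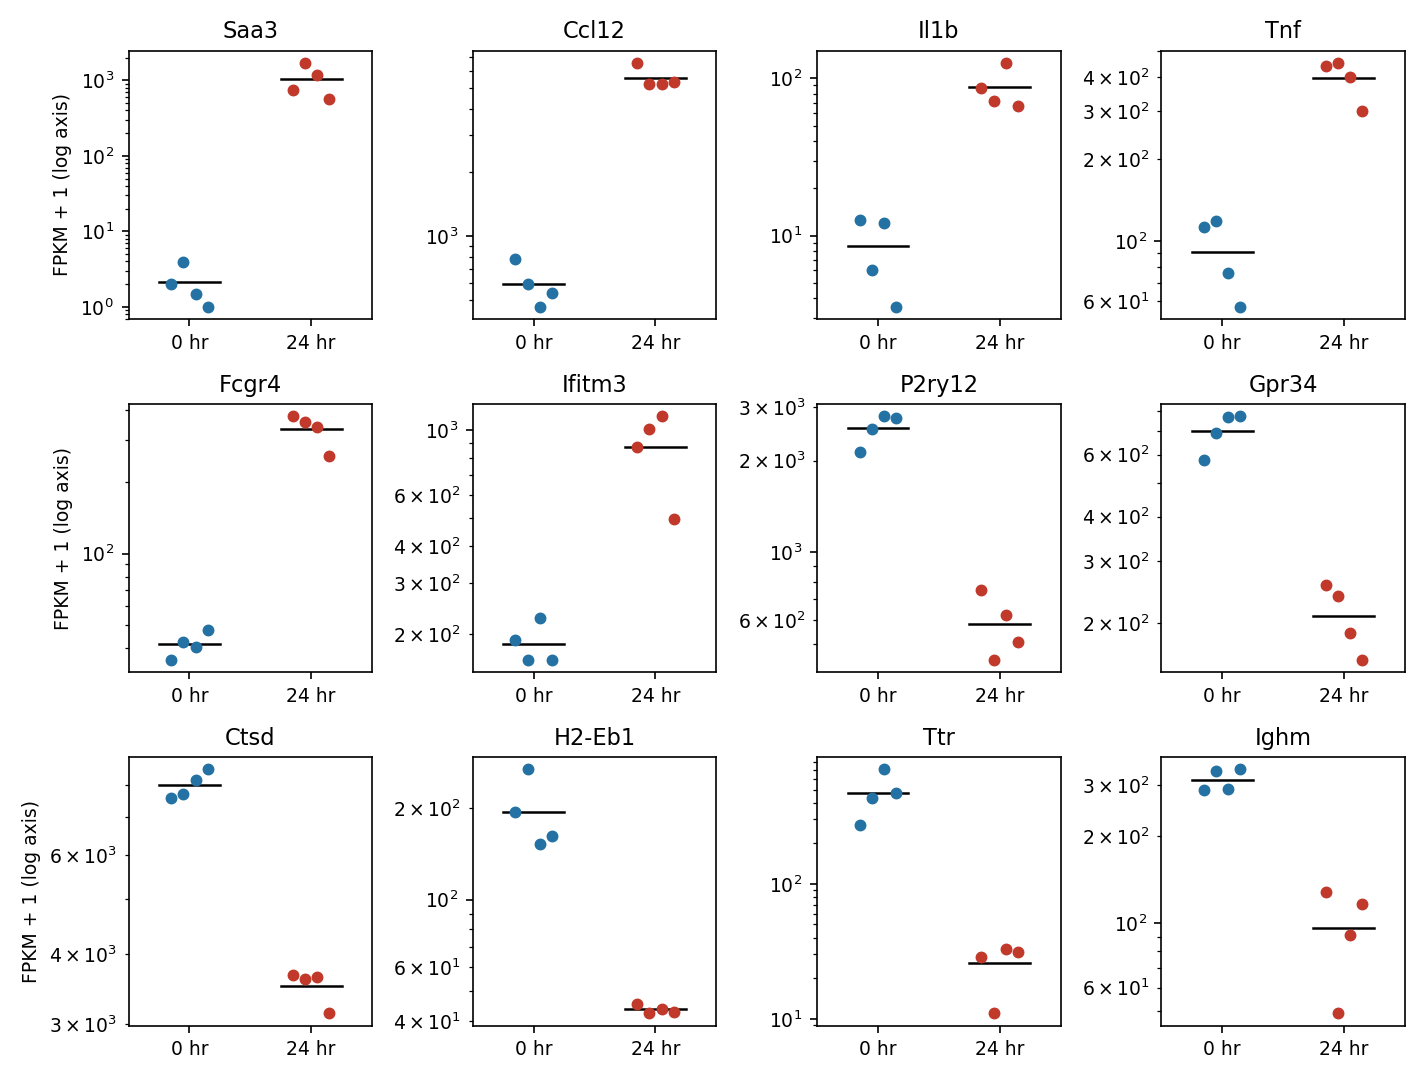
FPKM + 1 of 12 genes (vertical log axes with a scale of their own) in the 4 libraries at 0 hr (blue) and the 4 libraries at 24 hr (red), in the order of the replicate numbers, with the group mean as a line. The groups do not overlap in any of the 12 genes shown (Saa3 goes from at most 2.98 FPKM to at least 560.1 FPKM), and the genes were chosen for their changes.

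The receptors and adaptors that sense LPS were called at shares near those of all genes tested. Of 23 tested genes, Tlr1, Myd88 and Irak1 were higher (13%, against 10.5% of all genes) and Ly96, Cd180 and Tlr9 were lower (13%, against 8.29%), with a median log2 fold change of 0.16, and 5 were higher when only the groups compared were fitted. Irak1, a kinase downstream of MYD88, rose from 7.61 ± 2.39 to 16.7 ± 3.4 FPKM (log2FC 1.07 ± 0.19, adjusted p = 0.000312). Ly96, the gene of MD-2, fell from 71.5 ± 10.4 to 40.6 ± 10.8 FPKM (log2FC -0.83 ± 0.18, adjusted p = 0.00218), and Cd180, which encodes a relative of TLR4, from 31.6 ± 6.1 to 15.4 ± 4.67 FPKM (log2FC -1.01 ± 0.20, adjusted p = 0.000851). Cd14 was at 944 ± 39.8 FPKM at 0 hr and 1707 ± 308 FPKM at 24 hr, and although the groups did not overlap the difference did not pass the test (log2FC 0.84 ± 0.38, adjusted p = 0.127). Cd14 did pass it when only the groups compared were fitted (adjusted p = 0.000893), under quantile normalization (adjusted p = 0.0465) and without the control libraries that stood apart on the principal components, replicate 2 of 6 hr and replicate 4 of 24 hr (adjusted p = 0.00375). Of 17 NF-kB subunits and inhibitors, Nfkbia, Nfkbib, Nfkbiz and Bcl3 rose, which encode inhibitors and nuclear regulators with ankyrin repeats, and 7 genes rose when only the groups compared were fitted. Nfkbiz had 75.9, 61.7, 51.7 and 61.2 FPKM at 0 hr and 152, 170.3, 159 and 178 FPKM at 24 hr (log2FC 1.39 ± 0.23, adjusted p = 0.000151) and lay above its level at 6 hr of 59.3 to 72.9 FPKM (log2FC against 6 hr 1.33 ± 0.23, adjusted p = 0.000353). Nfkbia rose from 1138 ± 97.1 to 2013 ± 64.9 FPKM (log2FC 0.83 ± 0.25, adjusted p = 0.0203, and 0.0545 without replicate 2 of 0 hr) and Bcl3 from 7.96 ± 0.922 to 27.4 ± 3.93 FPKM (log2FC 1.66 ± 0.47, adjusted p = 0.0146).

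Of 12 inflammasome genes, Nlrp3, Naip2, Naip5 and Casp4 rose (33.3%, against 10.5% of all genes tested) and 0 fell. Nlrp3, the sensor that activates caspase 1, had 15.4, 13.9, 13.9 and 12.8 FPKM at 0 hr and 37.2, 48.4, 42.4 and 55.99 FPKM at 24 hr (log2FC 1.64 ± 0.19, adjusted p = 2.21e-06), and its 24 hr libraries also lay above those at 6 hr (20.8 to 24.9 FPKM, log2FC against 6 hr 0.99 ± 0.19, adjusted p = 0.000952). Casp4, a caspase that binds LPS in the cytosol, rose from 23.3 ± 4.27 to 47.97 ± 5.25 FPKM (log2FC 1.02 ± 0.27, adjusted p = 0.00987) and Naip2 from 13.7 ± 2.12 to 26.9 ± 1.54 FPKM (log2FC 0.93 ± 0.13, adjusted p = 2.71e-05). Of the 19 tested feedback genes of the Socs, Dusp and RNA decay list, 0 passed the limma test, 2 had an unadjusted p under 0.05, and limma's voom on the recovered reads also called 0. With only the groups compared, 1 was higher and 2 were lower, and without both of these control libraries 2 were higher and 1 was lower. Dusp1 was at 2775 ± 489.6 FPKM at 0 hr and 2693 ± 942 FPKM at 24 hr and Zfp36 at 1628 ± 93.6 FPKM at 0 hr and 1308 ± 111 FPKM at 24 hr. The 6 hr libraries were below those of 24 hr for the phosphatase gene Dusp1, with 1144 to 1621 FPKM (log2FC against 6 hr 0.87 ± 0.22, adjusted p = 0.00744), and for Zfp36, which promotes mRNA decay, with 596 to 748 FPKM (log2FC against 6 hr 1.01 ± 0.27, adjusted p = 0.011). Immediate early genes followed no common direction, with Fosl2, Ier2, Ier3 and Maff of 21 higher and Ier5 lower, although 8 were lower when only the 2 groups were fitted. Ier3 rose from 79.4 ± 12.4 to 477 ± 92.8 FPKM (log2FC 2.56 ± 0.23, adjusted p = 4.05e-08).

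Glucocorticoid-responsive genes and metallothioneins formed a list of 15 tested genes, of which Fkbp5, Per1, Klf9 and Il1r2 rose and Sgk1 fell. Fkbp5, a co-chaperone of the glucocorticoid receptor, had 19.5, 18.7, 22.2 and 19.4 FPKM at 0 hr and 42.9, 169, 70.5 and 39.6 FPKM at 24 hr (log2FC 1.71 ± 0.35, adjusted p = 0.00131). Replicate 2 at 24 hr lay within the 6 hr range of 128 to 199.5 FPKM, and the other 3 libraries lay below it. The transcription factor Klf9 had 1.48, 20.3, 2.53 and 2.43 FPKM at 24 hr against 0.415, 0.631, 2.01 and 0.708 FPKM at 0 hr, with overlapping groups (log2FC 1.44 ± 0.43, adjusted p = 0.0214). The call of Klf9 was lost under 6 of 17 alternatives, among them leaving out replicate 2 of 24 hr, where the change was 0.74 on the log2 scale, replicates 1, 2 or 4 of 0 hr, and voom.

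Interferon-stimulated genes formed the list with the largest share of rises. Of 46 tested members, 38 rose and 0 fell, and 8 did not pass the test (Oas3, Mx2, Irf1, Irf8, Ifi44, Gbp5, Cmpk2 and Ifih1). The median log2 fold change was 1.52, and it was 2.29 at 6 hr against 0 hr. Ifitm3, an antiviral membrane protein and the most abundant member at 24 hr, had 189.8, 162, 226 and 163 FPKM at 0 hr and 876, 1003, 1113 and 497 FPKM at 24 hr (log2FC 2.18 ± 0.27, adjusted p = 3.96e-06), below its 6 hr level of 1293 to 2480 FPKM (log2FC against 6 hr -1.11 ± 0.27, adjusted p = 0.00648). Oasl2 rose from 8.32 ± 2.1 to 65.9 ± 18.3 FPKM (log2FC 2.82 ± 0.31, adjusted p = 7.12e-07), Oas2 from 1.48 ± 0.727 to 17.99 ± 6.37 FPKM (log2FC 2.901 ± 0.28, adjusted p = 1.8e-07) and Ifitm1 from 1.72 ± 1.28 to 21.2 ± 4.89 FPKM (log2FC 3.18 ± 0.45, adjusted p = 2.35e-05). Oas2 and Oasl2 encode proteins of the oligoadenylate synthetase family. Irf8, a factor that microglia express at rest, was at 303 ± 20.1 FPKM at 0 hr and 213 ± 24.8 FPKM at 24 hr (log2FC -0.51 ± 0.23, adjusted p = 0.122), and it was lower with an adjusted p of 0.00623 when only the groups compared were fitted.

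The promoter windows of 3 of these genes are shown because the interferon-stimulated genes moved together. Ifit1 and Isg15 were chosen after their values were seen. Ifit1 had 2.88, 2.04, 4.38 and 3.6 FPKM at 0 hr and 27.2, 23.2, 22.6 and 17.7 FPKM at 24 hr (log2FC 2.504 ± 0.34, adjusted p = 1.5e-05), and Isg15, a ubiquitin-like modifier, had 9.86, 11.7, 10.9 and 2.21 FPKM at 0 hr and 33.01, 38.9, 40.6 and 26.9 FPKM at 24 hr (log2FC 2.06 ± 0.35, adjusted p = 0.000213). The windows run from 250 bases before to 50 bases after the start of the gene in RefSeq on GRCm38.p6, 5′ to 3′ on the strand of the gene. Capitals mark each match to TTTCNNTTT or its reverse complement AAANNGAAA, the core of the interferon-stimulated response element, and overlapping matches run into each other. The Ifitm3 window lies at chr7:141010695-141010994 on the minus strand, that of Ifit1 at chr19:34640639-34640938 on the plus strand and that of Isg15 at chr4:156200769-156201068 on the minus strand.
Ifitm3: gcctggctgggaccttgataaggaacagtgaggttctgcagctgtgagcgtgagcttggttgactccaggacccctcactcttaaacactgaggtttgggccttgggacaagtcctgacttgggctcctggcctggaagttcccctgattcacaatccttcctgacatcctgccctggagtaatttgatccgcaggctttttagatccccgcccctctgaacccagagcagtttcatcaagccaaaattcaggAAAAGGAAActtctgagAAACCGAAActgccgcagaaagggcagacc
Ifit1: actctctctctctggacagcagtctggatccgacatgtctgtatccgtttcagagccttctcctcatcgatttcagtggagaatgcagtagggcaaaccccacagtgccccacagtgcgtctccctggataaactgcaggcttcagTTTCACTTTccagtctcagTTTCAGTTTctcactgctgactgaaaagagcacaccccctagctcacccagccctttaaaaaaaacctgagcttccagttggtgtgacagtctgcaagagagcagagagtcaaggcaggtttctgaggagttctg
Isg15: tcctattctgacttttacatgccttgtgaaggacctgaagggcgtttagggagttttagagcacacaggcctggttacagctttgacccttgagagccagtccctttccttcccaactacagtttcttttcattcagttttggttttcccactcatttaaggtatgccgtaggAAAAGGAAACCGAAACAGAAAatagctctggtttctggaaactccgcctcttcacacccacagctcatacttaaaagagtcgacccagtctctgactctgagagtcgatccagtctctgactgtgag

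The windows of Ifitm3 and Ifit1 each hold 2 matches and that of Isg15 holds 3. Of the 46 interferon-stimulated genes tested, 36 had a window and 25 of these held a match (69.4%), as did 10.6% of all 32851 windows and 12.1% of all genes with a window. Among the tested genes with a window the share was 9.86%. Among the 448 DEGs that rose with a log2 fold change past 1, 297 had a window and 69 held a match (23.2%). Among the 341 that fell as far, 228 had a window and 13 held a match (5.7%). An NF-kB-like run of GGGANTTTC, searched on both strands, was held by 1.11% of all windows and by 1.24% of the tested genes with a window. It was held by 9 of the 297 rising genes with a window (3.03%) and by 3 of the 228 falling genes with a window (1.32%). A match describes the letters of the window and is not evidence of a bound factor.

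Complement genes moved apart from the abundant C1q chains. Of 14 tested genes, C4b, Cfb, Cfp, C3ar1 and C5ar1 rose, whereas C1qa, C1qb and C1qc did not pass the test. Cfb, which encodes factor B of the alternative pathway, had 1.04, 3.29, 3.04 and 1.73 FPKM at 0 hr and 20.5, 60.5, 53.9 and 12.2 FPKM at 24 hr (log2FC 3.32 ± 0.42, adjusted p = 5.61e-06). C4b rose from 1.03 ± 0.944 to 8.13 ± 2.05 FPKM (log2FC 2.25 ± 0.30, adjusted p = 1.13e-05), and its level at 6 hr was the lower one with 2.56 to 3.97 FPKM (log2FC against 6 hr 1.100 ± 0.30, adjusted p = 0.014). C1qa was at 8007 ± 542 FPKM at 0 hr and 9135 ± 907 FPKM at 24 hr (log2FC 0.19 ± 0.23, adjusted p = 0.629) and C1qc at 7043 ± 424 FPKM at 0 hr and 7143 ± 526 FPKM at 24 hr (log2FC 0.02 ± 0.16, adjusted p = 0.952).

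Antigen presentation genes were counted by class. Of 19 genes of MHC class I and the immunoproteasome, H2-T22, Psmb10, Psme1, Psme2 and Nlrc5 rose and 0 fell, and 3 rose without replicate 2 of 24 hr. Nlrc5, the transactivator of MHC class I genes, rose from 2.45 ± 0.492 to 8.61 ± 2.49 FPKM (log2FC 1.46 ± 0.21, adjusted p = 2.65e-05) and H2-T22 from 10.4 ± 1.91 to 20.7 ± 3.96 FPKM (log2FC 0.93 ± 0.26, adjusted p = 0.0143, and 0.0511 without replicate 3 of 24 hr). The abundant B2m, the light chain of MHC class I, was at 4398 ± 395 FPKM at 0 hr and 5067 ± 1068 FPKM at 24 hr (log2FC 0.18 ± 0.17, adjusted p = 0.501). Of 14 genes of MHC class II and costimulation, Cd74, H2-Aa, H2-Ab1, H2-Eb1, H2-Oa and Ciita fell and 0 rose, with a median log2 fold change of -0.41. H2-Eb1, a class II beta chain, had 193, 266, 151 and 161 FPKM at 0 hr and 44.5, 41.3, 42.9 and 41.9 FPKM at 24 hr. The 24 hr libraries lay within a narrow range below all 0 hr libraries (log2FC -2.12 ± 0.28, adjusted p = 8.73e-06). H2-Aa fell from 254 ± 72.7 to 61.7 ± 13.99 FPKM (log2FC -2.01 ± 0.26, adjusted p = 6.57e-06) and H2-Ab1 from 691 ± 179.5 to 224 ± 25.6 FPKM (log2FC -1.59 ± 0.25, adjusted p = 7.95e-05). Cd74, the invariant chain, fell from 916 ± 209 to 504 ± 96.2 FPKM (log2FC -0.86 ± 0.26, adjusted p = 0.024) and lost its call without replicate 2 of 0 hr or replicates 1 or 4 of 24 hr, and Ciita, the class II transactivator, from 2.44 ± 1.24 to 0.379 ± 0.0911 FPKM (log2FC -1.26 ± 0.26, adjusted p = 0.00129).

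Fc receptors and other ITAM-linked receptors bind antibodies and surface ligands and signal through adaptors such as TYROBP. The list of 24 tested genes also held inhibitory receptors such as Fcgr2b and signaling enzymes such as Syk and Ptpn6. Of the 24, 11 rose (45.8%, against 10.5% of all genes tested) and Tyrobp, Trem2, Sirpa and Siglech fell (16.7%, against 8.29%). Fcgr4, an activating Fc receptor for IgG, had 34.6, 41.5, 39.4 and 46.6 FPKM at 0 hr and 377, 356, 341 and 255 FPKM at 24 hr (log2FC 2.997 ± 0.15, adjusted p = 1.54e-12), and the 6 hr libraries held 224 to 308 FPKM (log2FC against 6 hr 0.34 ± 0.15, adjusted p = 0.131). The abundant Fcgr3 rose from 2109 ± 351 to 3463 ± 698 FPKM (log2FC 0.71 ± 0.17, adjusted p = 0.00382). The amplifying receptor Trem1 rose from 2.1 ± 1.12 to 16.5 ± 11.8 FPKM (log2FC 2.37 ± 0.47, adjusted p = 0.000963) and the lectin receptor Clec4e from 0.989 ± 0.757 to 7.85 ± 3.63 FPKM (log2FC 2.13 ± 0.40, adjusted p = 0.000461). Trem2 had 2295, 2305, 2354 and 2655 FPKM at 0 hr and 1139, 832, 924 and 1102 FPKM at 24 hr and fell (log2FC -1.27 ± 0.13, adjusted p = 1.85e-07), and its adaptor Tyrobp fell from 3120 ± 158 to 2443 ± 219.5 FPKM (log2FC -0.36 ± 0.12, adjusted p = 0.0352). The call of Tyrobp was lost under 6 of the alternatives tried.

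Genes that mark microglia at rest were lower at 24 hr as a group. Of 33 tested homeostatic genes, 22 fell, Runx1 rose and 10 did not pass the test, and the median log2 fold change was -0.82. P2ry12 (Entrez ID 70839, chr3:59216271-59262985), the purinergic receptor by which microglia sense ADP, had 2133, 2542, 2797 and 2765 FPKM at 0 hr and 749.5, 441, 619 and 505 FPKM at 24 hr (log2FC -2.16 ± 0.23, adjusted p = 4.29e-07). The 4 libraries at 24 hr lay below all 0 hr libraries, and the 6 hr libraries held 334 to 450.1 FPKM, which did not differ from 24 hr by the test (log2FC against 6 hr 0.55 ± 0.23, adjusted p = 0.103). The orphan receptor Gpr34 fell from 700.1 ± 89.4 to 209 ± 45.9 FPKM (log2FC -1.76 ± 0.28, adjusted p = 8.07e-05), and at 24 hr it was higher than the 44.9 to 82.7 FPKM of 6 hr (log2FC against 6 hr 1.82 ± 0.28, adjusted p = 8.13e-05). Slc2a5, a fructose transporter, fell from 462 ± 33.6 to 152 ± 64.7 FPKM (log2FC -1.72 ± 0.28, adjusted p = 0.000128). The most abundant member was Cst3, the gene of cystatin C, which fell from 28270 ± 3306 to 15430 ± 1728 FPKM (log2FC -0.87 ± 0.16, adjusted p = 0.000417) but had a change of 0 under quantile normalization. Runx1, a transcription factor of myeloid development, rose from 25.3 ± 0.594 to 45.7 ± 3.68 FPKM (log2FC 0.82 ± 0.17, adjusted p = 0.00103).

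Genes of the disease-associated signature of microglia moved in both directions, with 8 of 29 tested members higher and 7 lower and a median log2 fold change of 0.01. Spp1, the gene of osteopontin, had 5.07, 4.87, 3.95 and 2.63 FPKM at 0 hr and 60.7, 136, 38.1 and 27.9 FPKM at 24 hr (log2FC 3.47 ± 0.42, adjusted p = 2.93e-06), below the 211 to 462 FPKM of 6 hr (log2FC against 6 hr -2.66 ± 0.42, adjusted p = 0.000117). The inhibitory receptor Lilrb4a rose from 11.7 ± 4.05 to 95.4 ± 79.1 FPKM (log2FC 2.68 ± 0.38, adjusted p = 2.35e-05), with replicate 2 the highest at 24 hr. The tetraspanin Cd63 rose from 187 ± 14.04 to 602 ± 87.9 FPKM (log2FC 1.67 ± 0.13, adjusted p = 6.47e-09) and Fth1, the heavy chain of ferritin, from 4472 ± 420.1 to 8238 ± 802 FPKM (log2FC 0.88 ± 0.23, adjusted p = 0.00812). Ctsd, the gene of cathepsin D, had 7562, 7697, 8141 and 8518 FPKM at 0 hr and 3662, 3611, 3636 and 3132 FPKM at 24 hr and fell (log2FC -1.19 ± 0.20, adjusted p = 0.000177). Among 37 lysosomal genes, 11 fell and 6 rose. Ctss, the gene of cathepsin S and an abundant transcript, was higher at 24 hr with 8881 ± 895 FPKM at 0 hr and 12580 ± 1590 FPKM at 24 hr (log2FC 0.50 ± 0.14, adjusted p = 0.0129), a call that ended under quantile normalization and without the filter on low values.

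**Figure D4:**
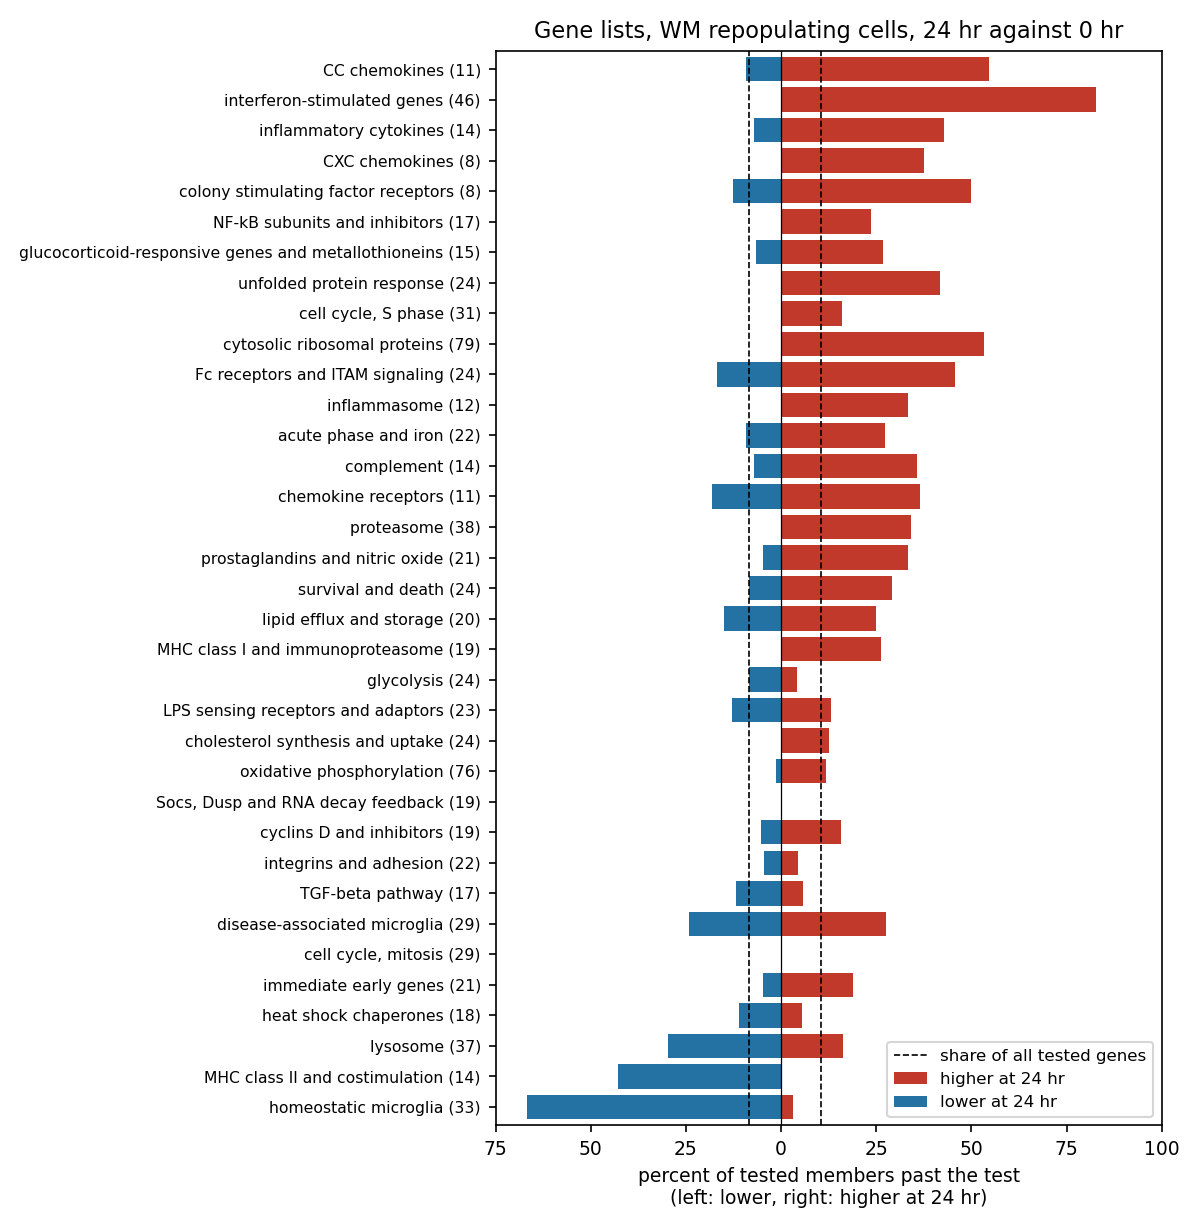
Percent of the tested members of 35 gene lists (number tested in parentheses) that were lower (blue, to the left) or higher (red, to the right) at 24 hr against 0 hr, ordered by the median log2 fold change, with dashed lines at the shares of all tested genes (8.29% and 10.5%). Interferon-stimulated genes have the largest share higher and homeostatic microglial genes the largest share lower.

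Growth factor receptors of microglia moved apart. Of 8 tested genes of the colony stimulating factors and their receptors, Csf1, Csf2ra, Csf2rb and Csf2rb2 rose and Csf1r fell. Csf1r, the target of PLX3397, had 2039, 1996, 2142 and 2151 FPKM at 0 hr and 1321, 1187, 1221 and 1083 FPKM at 24 hr (log2FC -0.79 ± 0.19, adjusted p = 0.00385). Csf2rb, the beta chain shared by the receptors of GM-CSF and interleukin 3, rose from 15.7 ± 1.34 to 42.4 ± 4.67 FPKM (log2FC 1.38 ± 0.16, adjusted p = 2.27e-06), Csf2ra from 124 ± 7.46 to 211 ± 39.1 FPKM (log2FC 0.75 ± 0.19, adjusted p = 0.00605) and the ligand Csf1 from 2.78 ± 0.634 to 9.16 ± 1.15 FPKM (log2FC 1.44 ± 0.20, adjusted p = 2.06e-05). Of 24 survival and death genes, 7 rose. Ripk3, a kinase of necroptosis, rose from 5.35 ± 1.48 to 14.6 ± 4.39 FPKM (log2FC 1.28 ± 0.24, adjusted p = 0.000561), and Bcl2l11, the gene of the proapoptotic BIM, fell from 7.51 ± 0.609 to 2.87 ± 1.23 FPKM (log2FC -1.18 ± 0.22, adjusted p = 0.000466). Bcl2a1d, an antiapoptotic gene with near-identical copies among which reads could be split, rose from 12.8 ± 2.18 to 32.2 ± 8.66 FPKM (log2FC 1.24 ± 0.33, adjusted p = 0.00935). Of 17 genes of the TGF-beta pathway, Skil rose and Tgfbr1 and Eng fell, and Eng, the gene of endoglin, fell from 59.5 ± 6.76 to 16.5 ± 1.6 FPKM (log2FC -1.79 ± 0.26, adjusted p = 2.71e-05). The share higher, 5.88%, was below the 10.5% of all genes tested and the share lower, 11.8%, was near their 8.29%, and 5 of the alternatives left 1 gene lower. Of 22 integrin and adhesion genes, Itga5 rose and Selplg fell, a share of 4.55% each that is below that of all genes tested.

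Iron and lipid genes held several of the larger changes. Of 22 genes of the acute phase and iron list, 6 rose and Slc40a1 and Ncoa4 fell. Slc40a1, the gene of the iron exporter ferroportin, fell from 54.4 ± 10.99 to 14.9 ± 4.02 FPKM (log2FC -1.81 ± 0.26, adjusted p = 2.71e-05) and the zinc and iron importer Slc39a14 rose from 1.5 ± 0.436 to 10.4 ± 1.77 FPKM (log2FC 2.19 ± 0.31, adjusted p = 2.35e-05). Of 20 genes of lipid efflux and storage, Apoc2, Nr1h3, Plin2, Msr1 and Fabp5 rose and Mylip, Lpcat2 and Acsl1 fell. These counts are uncertain, with 3 higher without replicate 4 of 0 hr or replicates 2 or 3 of 24 hr and 1 lower without replicates 2 or 3 of 0 hr or replicates 3 or 4 of 24 hr, each left out alone. The lipid droplet protein Plin2 rose from 38.9 ± 4 to 128 ± 62.99 FPKM (log2FC 1.58 ± 0.28, adjusted p = 0.000265), and Nr1h3, the gene of the liver X receptor alpha, from 1.08 ± 0.728 to 15.9 ± 9.36 FPKM (log2FC 2.895 ± 0.58, adjusted p = 0.000967). Apoe was at 2993 ± 599.6 FPKM at 0 hr and 3466 ± 957 FPKM at 24 hr (log2FC 0.18 ± 0.24, adjusted p = 0.655), above the 936 to 1692 FPKM of 6 hr (log2FC against 6 hr 1.32 ± 0.24, adjusted p = 0.000632). Of 21 genes of prostaglandins and nitric oxide, 7 rose and Tbxas1 fell. Irg1, which makes itaconate, had 0.157, 0, 0.496 and 0.744 FPKM at 0 hr and 11.1, 29.2, 16.1 and 4.51 FPKM at 24 hr (log2FC 3.37 ± 0.58, adjusted p = 0.000204), a call that ended under voom on the recovered reads (adjusted p = 0.0675). Ptgs2, the gene of cyclooxygenase 2, rose from 1.26 ± 0.329 to 4.1 ± 1.05 FPKM (log2FC 1.17 ± 0.32, adjusted p = 0.0132).

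The largest falls included genes of the choroid plexus, the epithelium that makes cerebrospinal fluid. Ttr, which encodes the thyroxine carrier transthyretin, had 273, 431, 703 and 468 FPKM at 0 hr and 27.9, 9.96, 31.8 and 30.4 FPKM at 24 hr (log2FC -4.22 ± 0.56, adjusted p = 1.13e-05). The groups did not overlap, and at 6 hr Ttr was at 153 to 589.6 FPKM. Enpp2, the gene of autotaxin, fell from 77.5 ± 28.4 to 4.47 ± 1.62 FPKM (log2FC -3.82 ± 0.52, adjusted p = 1.51e-05), Igfbp2 from 11.5 ± 5.5 to 0.772 ± 0.346 FPKM (log2FC -2.696 ± 0.52, adjusted p = 0.000619) and 1500015O10Rik from 9.24 ± 4.5 to 0.512 ± 0.318 FPKM (log2FC -2.67 ± 0.50, adjusted p = 0.000525). The choroid plexus markers Ttr, Folr1, Kcnj13 and Clic6 were all lower at 24 hr (4 of 4). Folr1, a folate receptor, fell from 5.61 ± 3.25 to 0.394 ± 0.359 FPKM and the potassium channel Kcnj13 from 12.7 ± 10.1 to 1.58 ± 1.03 FPKM. The sum of the 4 markers, most of it Ttr, was 282 to 739 FPKM in the 0 hr libraries and 12.2 to 32.5 FPKM in the 24 hr libraries. In control microglia this sum was 76.2 to 222 FPKM at 0 hr and 36.0 to 55.9 FPKM at 24 hr. At 6 hr it was 161 to 608 FPKM in WM repopulating cells and 99.3 to 1369 FPKM in control microglia. The part of choroid plexus RNA in these falls was not tested.

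Lymphocyte genes also stood among the largest falls. The joining segments Ighj1 and Ighj4 of the immunoglobulin heavy chain locus, whose 53 and 54 bases give a large FPKM for each read, fell from 93.7 ± 14.5 to 9.996 ± 3.61 FPKM (log2FC -3.15 ± 0.60, adjusted p = 0.000628) and from 34.1 ± 6.29 to 3.07 ± 2.23 FPKM (log2FC -3.37 ± 0.69, adjusted p = 0.00119). Tnfrsf17, the gene of the B cell maturation antigen, fell from 13.2 ± 5.3 to 1.09 ± 0.353 FPKM (log2FC -2.698 ± 0.29, adjusted p = 6.73e-07). Ighm, the constant region of IgM and the bulk of the B cell sum, had 286, 335, 289.5 and 338 FPKM at 0 hr and 127, 47.9, 89.8 and 116 FPKM at 24 hr (log2FC -1.79 ± 0.27, adjusted p = 3.84e-05). The B cell sum was 296 to 358 FPKM at 0 hr and 54.3 to 134 FPKM at 24 hr, with the marker Pax5 not listed in the table. Of the 8 markers of T and NK cells, 4 fell and Gzma rose. Cd3d, a chain of the T cell receptor complex, fell from 5.89 ± 2.1 to 0.806 ± 0.482 FPKM (log2FC -1.92 ± 0.34, adjusted p = 0.00032), and Gzma, the gene of granzyme A, had 9.11, 62.7, 140.2 and 24.8 FPKM at 24 hr against 9.73, 5.95, 4.24 and 5.7 FPKM at 0 hr (log2FC 2.45 ± 0.58, adjusted p = 0.00424), a call that ended under voom (adjusted p = 0.0549). The T and NK cell sum was 50.5 to 90.5 FPKM at 0 hr and 29.1 to 191 FPKM at 24 hr, so these groups overlapped. The part of lymphocytes in these changes was not tested.

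The other large falls were of genes of several kinds. Cd209a, a lectin receptor of the DC-SIGN family, had 23.1, 42.5, 21.2 and 20.6 FPKM at 0 hr and 0.844, 0.991, 1.89 and 0.729 FPKM at 24 hr (log2FC -3.69 ± 0.47, adjusted p = 6.66e-06). Upk1b, a tetraspanin of the uroplakin family, fell from 93.8 ± 20.8 to 8.3 ± 1.33 FPKM (log2FC -3.33 ± 0.25, adjusted p = 3.49e-09). Ramp1, a subunit of the receptor of calcitonin gene-related peptide, fell from 13.3 ± 1.41 to 1.16 ± 0.801 FPKM (log2FC -2.81 ± 0.25, adjusted p = 4.26e-08). The predicted gene Gm16486 fell from 11.6 ± 3.28 to 0.4 ± 0.437 FPKM (log2FC -3.18 ± 0.42, adjusted p = 9.36e-06) and the transcript 6030468B19Rik from 9.76 ± 3.85 to 0.706 ± 0.437 FPKM (log2FC -2.599 ± 0.29, adjusted p = 9.6e-07). Of 19 tested cyclins D and cell cycle inhibitors, Ccnd2, Cdkn1a and Myc rose (15.8%, against 10.5% of all genes tested) and Cdkn1c fell (5.26%, against 8.29%). The cyclin-dependent kinase inhibitor Cdkn1c went from 16.8 ± 3.74 to 3.11 ± 1.5 FPKM (log2FC -2.15 ± 0.29, adjusted p = 1.25e-05), whereas the inhibitor Cdkn1a went from 65.5 ± 9.68 to 238 ± 87.8 FPKM (log2FC 1.798 ± 0.18, adjusted p = 3.1e-07) and the growth regulator Myc from 40.9 ± 5.56 to 116 ± 21.5 FPKM (log2FC 1.47 ± 0.17, adjusted p = 1.07e-06).

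Whether the change from 0 to 24 hr differed from that of control microglia was tested as an interaction in the same fit. In control microglia 21.3% of the genes tested were DEGs between 0 and 24 hr, and the difference between both kinds of cells passed the test for 11 genes, which is 0.0867% of the genes tested. Of the 11, 2 reached the filter of 1 FPKM in 3 libraries only through the group where they were high, Chek1 through control microglia at 24 hr and Myo18b through control microglia at 0 hr, so their differences are not counted as results. Of the other 9, 8 had a lower change in WM repopulating cells (Pole2, Lig1, Gmnn, Cenpk, Tk1, Stmn1, Zwilch and Hspd1) and Ier2 had a higher one. Of all genes tested, 1105 had an unadjusted p under 0.05 for the difference, and limma's voom on the recovered reads called 1 gene, Lig1 (adjusted p = 0.00564). Without replicate 4 of the control microglia at 24 hr, a library that stood apart on the principal components, 24 genes passed the test. Leaving out replicate 2 of the control microglia at 6 hr as well, which also stood apart, gave 53 genes. The count was 6 without replicates 1, 2 or 4 of WM repopulating cells at 24 hr, each left out alone, or without replicate 1 of control microglia at 24 hr.

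The genes with the largest differences and a level of at least 5 FPKM in some group are given here. Lig1, the ligase that joins Okazaki fragments, had 3.97, 4.18, 5.22 and 4.995 FPKM at 0 hr and 3.91, 3.15, 5.18 and 5.64 FPKM at 24 hr in WM repopulating cells (log2FC -0.05 ± 0.23, adjusted p = 0.91). In control microglia Lig1 was at 4.47 ± 0.676 FPKM at 0 hr and 23.3 ± 5.95 FPKM at 24 hr (log2FC 2.13 ± 0.24, adjusted p = 1.56e-06), and the changes differed (difference -2.18 ± 0.33, adjusted p = 0.00739). Pole2, a subunit of DNA polymerase epsilon, was at 2.27 ± 0.358 FPKM at 0 hr and 2.77 ± 0.884 FPKM at 24 hr in WM repopulating cells and in control microglia at 0.838 ± 0.64 FPKM at 0 hr and 9.98 ± 3.26 FPKM at 24 hr (difference -2.41 ± 0.37, adjusted p = 0.00739). Gmnn, the gene of the licensing inhibitor geminin, was at 6.39 ± 2.79 FPKM at 0 hr and 9.49 ± 2.93 FPKM at 24 hr and in control microglia at 2.12 ± 1.15 FPKM at 0 hr and 18.2 ± 2.53 FPKM at 24 hr (difference -2.16 ± 0.42, adjusted p = 0.0323). Cenpk, a kinetochore gene of low level, was at 0.597 ± 0.2 FPKM at 0 hr and 0.94 ± 0.354 FPKM at 24 hr and in control microglia at 0.434 ± 0.402 FPKM at 0 hr and 5.95 ± 2.9 FPKM at 24 hr (difference -1.97 ± 0.34, adjusted p = 0.019). Tk1, the thymidine kinase of S phase, was at 6.87 ± 1.87 FPKM at 0 hr and 3.92 ± 1.26 FPKM at 24 hr and in control microglia at 3.93 ± 0.45 FPKM at 0 hr and 10.99 ± 2.92 FPKM at 24 hr (difference -1.93 ± 0.35, adjusted p = 0.0227). Stmn1, the microtubule regulator stathmin, was at 3.93 ± 0.542 FPKM at 0 hr and 2.47 ± 0.8 FPKM at 24 hr and in control microglia at 3.9 ± 0.789 FPKM at 0 hr and 8.96 ± 0.773 FPKM at 24 hr (difference -1.56 ± 0.28, adjusted p = 0.0227). For each of these 6 genes the 4 libraries of control microglia at 24 hr lay above the 3 at 0 hr, whereas in WM repopulating cells the groups overlapped except for Stmn1, which was lower at 24 hr in all libraries without passing the test (log2FC -0.53 ± 0.19, adjusted p = 0.0539). The fall of Stmn1 and that of Tk1 each passed it under 5 of the alternatives tried.

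Of the 31 S phase genes tested, 5 rose in WM repopulating cells (Mcm5, Pcna, Gins1, Pola1 and Prim1, of which Gins1 lost its call without replicate 2 of 0 hr and Prim1 without replicate 4 of 0 hr or replicates 2 or 3 of 24 hr) and 29 rose in control microglia, with median log2 fold changes of 0.45 and 1.53. The share that rose was 16.1% in WM repopulating cells, against 10.5% of all genes tested, and in control microglia 12.1% of all genes tested rose. Of the 31 genes, 2 passed the filter on low values only through control microglia at 24 hr. Without replicate 3 of 0 hr, and also when only the groups compared were fitted, 8 of the 31 rose in WM repopulating cells. The fitted change was larger in control microglia for all 31 genes, the difference passed the test for Lig1 and Tk1, and 25 of the 31 had an unadjusted p under 0.05 for it. Mcm5, a subunit of the replicative helicase, rose from 3.07 ± 0.71 to 7.94 ± 2.08 FPKM in WM repopulating cells (log2FC 1.13 ± 0.31, adjusted p = 0.0117) and in control microglia it was at 4.71 ± 1.34 FPKM at 0 hr and 28.7 ± 4.44 FPKM at 24 hr (log2FC 2.396 ± 0.33, adjusted p = 1.58e-05), but this difference did not pass the test (difference -1.27 ± 0.45, adjusted p = 0.359). The replication clamp Pcna, the most abundant gene of the list that rose, went from 51.01 ± 3.79 to 69.7 ± 8.43 FPKM (log2FC 0.44 ± 0.11, adjusted p = 0.00743). Of 29 mitosis genes tested, 0 passed the limma test in WM repopulating cells and 1 had an unadjusted p under 0.05, with 0 called by voom, and 12 rose in control microglia. Of these 29 genes, 2 passed the filter on low values only through 1 group. Control microglia at 24 hr were that group for 1 gene and WM repopulating cells at 0 hr for 1 gene. A single mitosis gene was higher in WM repopulating cells with a pseudocount of 0.1, with the replicate block, and without replicate 3 of 0 hr or replicate 4 of 24 hr.

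**Figure D5:**
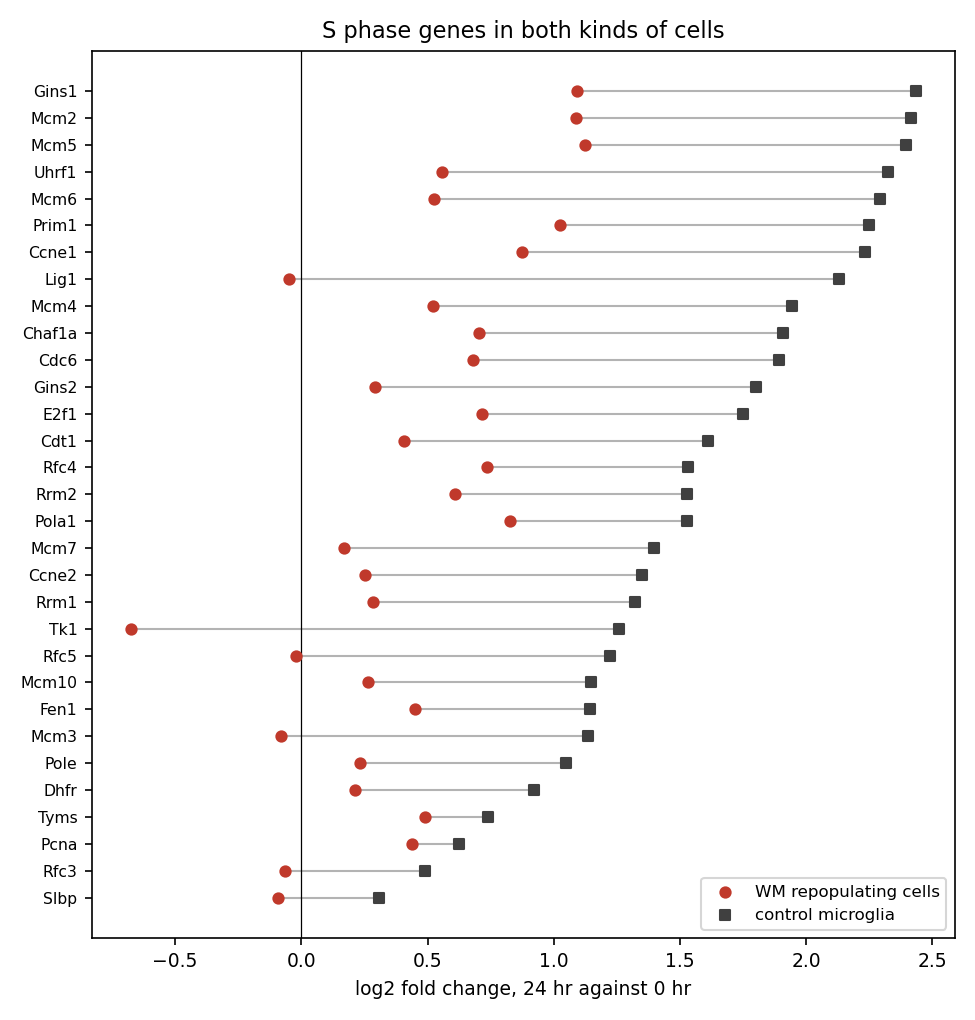
Log2 fold change at 24 hr against 0 hr (horizontal axis) of the 31 S phase genes tested, in WM repopulating cells (red circles) and control microglia (dark squares), ordered by the change in control microglia. Every square lies to the right of its circle, and the difference passed the test for Lig1 and Tk1.

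The difference ran the other way for Ier2, an immediate early gene. Ier2 had 749, 636, 552 and 629 FPKM at 0 hr and 1015, 1425, 1022 and 1342 FPKM at 24 hr in WM repopulating cells (log2FC 0.90 ± 0.18, adjusted p = 0.000914), with groups that did not overlap. In control microglia it was at 574 ± 37.3 FPKM at 0 hr and 404 ± 106 FPKM at 24 hr (log2FC -0.55 ± 0.19, adjusted p = 0.0441), and the changes differed (difference 1.44 ± 0.26, adjusted p = 0.0227). Of the 11 genes, Lig1 kept its call of a difference under all 24 alternatives tried and the others lost it under 1 to 16 of them. Among genes with large changes at 24 hr, the difference between both kinds of cells did not pass the test for Saa3 (difference -0.41 ± 0.67, adjusted p = 0.912), P2ry12 (difference 0.34 ± 0.33, adjusted p = 0.816), Ttr (difference -2.81 ± 0.83, adjusted p = 0.231), Nlrp3 (difference 1.21 ± 0.28, adjusted p = 0.0904) and Tnf (difference 1.07 ± 0.45, adjusted p = 0.489). The interferon-stimulated genes had a median log2 fold change of 1.71 in control microglia with 38 members higher, and 0 of the 46 passed the test of the difference.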

How the data were processed

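Gene expression was measured in CD11b+CD45int cells sorted from brain hemispheres, with 4 libraries each at 0 and 24 hr after LPS. The study's methods name Smart-seq2 cDNA and Nextera libraries sequenced on a NextSeq500, whereas the labels describe another library protocol. Reads were aligned with STAR (v2.5.1b) and counted with featureCounts, and the submitters' processing notes name the build mm10. The authors made the deposited FPKM values with edgeR and limma, scaled by gene length and library size, with Entrez IDs. The steps of the FPKM values gave whole reads for 15282 of 15285 genes, which set the depth of each library (Ctss is one of the genes without whole reads). The 89 entries with no symbol were kept out of named results. Columns of the table that belong to no sample numbered 0, and the 2 tables of the other experiments of the series were not used.

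Genes at 1 FPKM or more in 3 or more of the 24 libraries were kept (12684 genes). Of the 2389 DEGs, 6 passed this filter only through the WM repopulating cells at 24 hr and 32 only through those at 0 hr. Values were taken as log2(FPKM + 1) and fitted with limma (3.58.1, R 4.3.3), 1 mean for each of the 6 groups, with a variance trend and Benjamini-Hochberg adjustment over all genes, at a threshold of 0.05. The change at 24 hr against 0 hr in WM repopulating cells was the main comparison, and its difference from the same change in control microglia was taken from the same fit. The study gives its n as mice, while the labels do not tie a library to a mouse. Tables and plots were made in Python 3.11.15 (matplotlib 3.10.9, pandas 2.3.3, numpy 2.4.6), and the fit was tested on simulated data.

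Genes were named by rule. The rule took the 12 largest rises and the 12 largest falls among DEGs whose groups did not overlap, with a mean of at least 5 FPKM in the higher group and an adjusted p under 0.05 with each of the 8 libraries left out. It took, in each list, the 3 DEGs of the largest change and the 2 members of the highest mean FPKM, of which the text gives some, and the 6 genes of the largest interaction past the test with a mean of at least 5 FPKM in some group. Other genes named were chosen after their values were seen, and some items are not reported here. The samples, gene lists and markers were chosen with earlier results of these data known. Of 138 genes with values in the text, 17 share over 100 exon bases with another gene in GENCODE vM21, among them Il1a, Csf1r, Lig1, Pole2, Cfb, Spp1, Runx1 and Ctsd. Whether the libraries keep strand was not tested, so reads of overlapping genes may be mixed. Positions and promoter windows are from RefSeq on GRCm38.p6. Alternatives were another pseudocount, no filter, only the compared groups, no variance trend, quantile and median scaling, a replicate block and each replicate left out. Limma's voom on the recovered reads, and the fit without replicate 2 of the 6 hr and replicate 4 of the 24 hr control microglia, were added after seeing the data.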

Additional observations from a re-analysis of the deposited data

Results flagged for a closer look

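Each group of 4 libraries was searched for a library far from the others in 138 genes with values in the text, which is 276 searches of which chance flags about 1 in 20. A library stood out in 23 of them. Replicate 2 of 24 hr was the highest in 7 of them, for Il1r2 (585.7 FPKM), Cd300lf (524.3 FPKM), Ccl3 (3394 FPKM), Cd14 (2161 FPKM), Klf9 (20.28 FPKM), Cdkn1a (369.3 FPKM) and Rps14 (313.4 FPKM).

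Replicate 4 of 24 hr was the lowest for Il1a (641 FPKM), B2m (3483 FPKM), Ctsd (3132 FPKM) and Apoe (2045 FPKM). Replicate 1 of 24 hr was the highest for Ccl12 (6568 FPKM) and Cd3d (1.521 FPKM), and replicate 3 of 24 hr was the highest for Tk1 (5.806 FPKM) and the lowest for Eng (14.09 FPKM). Among the 0 hr libraries, replicate 2 was the highest for Cd209a (42.46 FPKM), H2-T22 (13.24 FPKM) and Hspa1a (950.3 FPKM), replicate 4 was the lowest for Trem1 (0.427 FPKM) and the highest for Trem2 (2655 FPKM), replicate 1 was the lowest for Il1rn (0.8061 FPKM) and the highest for Stmn1 (4.732 FPKM), and replicate 3 was the lowest for 6030468B19Rik (4.052 FPKM).

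The change from 0 to 24 hr differed between WM repopulating cells and control microglia by the interaction test in 11 genes, of which Chek1 and Myo18b passed the filter on low values only through control microglia at 24 hr and 0 hr, respectively. The difference (log2, WM repopulating cells minus control microglia) was -2.41 for Pole2, -2.18 for Lig1, -2.16 for Gmnn, -1.97 for Cenpk, -1.93 for Tk1, -1.56 for Stmn1, -1.46 for Zwilch, -1.35 for Chek1 and -0.93 for Hspd1. It was 1.30 for Myo18b and 1.44 for Ier2. Zwilch, a kinetochore gene, was at 0.696 ± 0.275 FPKM at 0 hr and 0.789 ± 0.172 FPKM at 24 hr in WM repopulating cells and in control microglia at 0.279 ± 0.438 FPKM at 0 hr and 2.65 ± 0.567 FPKM at 24 hr. The checkpoint kinase Chek1 was at 0.122 ± 0.063 FPKM at 0 hr and 0.595 ± 0.171 FPKM at 24 hr and in control microglia at 0.16 ± 0.121 FPKM at 0 hr and 3.22 ± 0.696 FPKM at 24 hr, and its difference had an adjusted p of 0.596 with voom and 0.41 with a pseudocount of 0.1. Hspd1, a mitochondrial chaperone, was at 23.8 ± 4.29 FPKM at 0 hr and 25.6 ± 2.5 FPKM at 24 hr and in control microglia at 17.3 ± 0.67 FPKM at 0 hr and 36.8 ± 2.13 FPKM at 24 hr. Myo18b, a myosin gene, was at 0.321 ± 0.171 FPKM at 0 hr and 0.0911 ± 0.07 FPKM at 24 hr and in control microglia at 3.99 ± 0.514 FPKM at 0 hr and 0.676 ± 0.0835 FPKM at 24 hr, and its difference was 0.15 (adjusted p = 0.978) with voom on the recovered reads and 1.295 (adjusted p = 0.618) with that pseudocount.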

How the results depend on the processing

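Across all alternatives tried, the counts of genes higher and lower at 24 hr against 0 hr stayed within 1.5 times those reported. They were 1240 to 1747 higher and 943 to 1485 lower with all WM libraries, and 1082 to 1155 higher and 794 to 895 lower with 1 WM library left out. Genes past a log2 fold change of 1 numbered 736 to 1066, and DEGs of control microglia 1934 to 2881. The difference between WM repopulating cells and control microglia (11 genes) was the count that moved. It was 6 with a pseudocount of 0.1, 17 with only the groups compared, 6 with the replicate block, 1 with voom, 53 without both control libraries that stand apart, and 6 to 24 with 1 library left out. The cause was not tested. Gene values that changed sign were all of genes that did not pass the test of the change: C1qa (-0.055 under quantile normalization), C1qc (-0.0081 and -0.029), Dusp1 (0.015 and 0.071), Lig1 (0.0039 and 0.075) and Zwilch (-0.027), the last 4 with 1 WM library left out, where the values of Dusp1 ran from -0.30 to 0.07, of C1qc from -0.03 to 0.059, of Lig1 from -0.15 to 0.08 and of Zwilch from -0.03 to 0.17. Of 2345 recomputed gene values, 64 lost their call, 18 gained one and 2255 kept their direction and side of the threshold, and of 1190 recomputed counts of lists 107 moved by over 1.5 times, mostly counts under 5. Voom on the recovered reads ended the calls of Il1rn, Cxcl10, Klf9, Irg1 and Gzma, with adjusted p of 0.0549 to 0.0928. Cst3 has the highest level in each of the 8 WM libraries, which quantile normalization sets equal.

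Replicate numbers are shared between groups but do not pair the libraries, since the correlations of the deviations of same-numbered libraries were -0.09, 0.01, 0.06 and -0.01. The replicate block gave 1308 genes higher, 1028 lower and 6 genes for the difference. Depth limits genes of low level, for which a single read on 2 kb was worth up to 0.0792 FPKM.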

Other observations

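Of 79 cytosolic ribosomal protein genes tested, 42 were higher and 0 lower, with a median log2 fold change of 0.45. The abundant Rpl4 rose from 230.1 ± 5.59 to 298 ± 33.8 FPKM (log2FC 0.37 ± 0.12, adjusted p = 0.0308) and Rps14 from 239 ± 18.6 to 297 ± 10.9 FPKM (log2FC 0.31 ± 0.10, adjusted p = 0.0325), small changes whose calls were lost under 7 and 8 of the alternatives tried. Rpl13 had 4.52, 5.48, 3.29 and 4.94 FPKM at 0 hr and 13.6, 11.8, 11.99 and 14.5 FPKM at 24 hr (log2FC 1.34 ± 0.18, adjusted p = 1.4e-05). Reads of ribosomal protein genes can be split with near-identical pseudogenes, and the listed level of Rpl13 is far below that of Rpl4. Of 38 proteasome subunits tested, 13 rose and 0 fell, and 7 rose without replicate 2 of 24 hr or replicate 1 of 0 hr, each left out alone. Psmd14, a deubiquitinase of the proteasome lid, rose from 40.2 ± 8.2 to 74.5 ± 8.63 FPKM (log2FC 0.89 ± 0.14, adjusted p = 9.67e-05), and the core subunit Psma6 from 69.7 ± 13 to 124 ± 30.1 FPKM (log2FC 0.81 ± 0.16, adjusted p = 0.000956).

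The unfolded protein response had 10 of 24 tested genes higher and 0 lower, with 17 higher without replicate 2 and 6 without replicate 1 of 24 hr. Asns, the asparagine synthetase gene and a target of ATF4, rose from 1.51 ± 0.169 to 12.3 ± 6.04 FPKM (log2FC 2.29 ± 0.26, adjusted p = 1.59e-06). Manf, a secreted factor of the endoplasmic reticulum, had 77.7, 88.9, 79.6 and 91.8 FPKM at 0 hr and 194, 93.4, 159.7 and 202 FPKM at 24 hr (log2FC 0.88 ± 0.17, adjusted p = 0.000688). Hspa5, the chaperone BiP, had 2774, 986, 2051 and 2425 FPKM at 24 hr against 1227, 1321, 1344 and 1452 FPKM at 0 hr, with replicate 2 below every 0 hr library (log2FC 0.53 ± 0.22, adjusted p = 0.101, and 0.00103 without that library). Of 18 heat shock chaperones, Hspa4 rose (5.56%, against 10.5% of all genes tested) and Dnajb1 and Hspb1 fell (11.1%, against 8.29%). Without replicate 2 of 24 hr, 3 were higher and 1 lower, and the median log2 fold change of the list turned from -0.10 to 0.10. Hspb1 had 22.4, 27.2, 24.6 and 39.7 FPKM at 0 hr and 8.21, 0.444, 5.87 and 11.7 FPKM at 24 hr (log2FC -2.301 ± 0.51, adjusted p = 0.00222). Hspa1a, which has a near-identical copy, had 466, 26.6, 475 and 1003 FPKM at 24 hr against 725, 950.3, 736 and 751 FPKM at 0 hr (log2FC -1.49 ± 1.02, adjusted p = 0.338). At 6 hr Hspa1a stood at 6.01 to 83.6 FPKM, a range that holds replicate 2 of 24 hr. Of 24 glycolysis genes, the hexose transporter Slc2a6 rose, from 9.57 ± 1.42 to 39.3 ± 10.3 FPKM (log2FC 1.899 ± 0.47, adjusted p = 0.00533), and Hk3 and Ldhb fell. These shares of 4.17% higher and 8.33% lower were below and near those of all genes tested, and 5 genes were higher when only the groups compared were fitted. Of 24 genes of cholesterol synthesis and uptake, Pmvk, Hsd17b7 and Insig1 rose (12.5%, near the 10.5% of all genes tested), with Insig1 going from 13.1 ± 2.79 to 31.7 ± 4.59 FPKM (log2FC 1.23 ± 0.25, adjusted p = 0.00108). Among 76 genes of oxidative phosphorylation, 9 rose (11.8%, near the 10.5% of all genes tested) and Sdha fell.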
